A study of Mus musculus with 4 samples.

Results

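Aminoacyl-tRNA synthetases are the enzymes that attach each amino acid to its transfer RNA, and their genes were followed here in cells labelled MIN6, an insulinoma line from mouse that serves as a stand-in for pancreatic beta cells. Most defining beta cell markers were at 0 in every library (values below), so the data go against that label and the identity of the cells is in doubt. The 36 genes were chosen by symbol from the 23473 named gene rows of a table of RNA-seq read counts. They comprise 20 genes of the cytosolic enzymes and 16 of the mitochondrial enzymes, and all 36 had enough counts to be tested. The control group, labelled wild type, has 2 libraries. The TLX group has 2 more, from cells with stable overexpression of TLX, a nuclear receptor without a known ligand whose gene is Nr2e1. All 4 came from total RNA of cells kept in 25 mM glucose and 15% serum. The vector and promoter that drive TLX, the number of clones behind the stable cells, and the origin of the replicates (separate cultures or not) are not stated in the labels, so p-values measure only the spread between these libraries.

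Cytosolic and mitochondrial protein synthesis use largely separate synthetases, all encoded in the nucleus, although Gars and Kars, counted here as cytosolic, each serve both compartments. The enzymes fall into class I and class II, which have unrelated catalytic folds, and several cytosolic ones are held together with scaffold proteins in the multisynthetase complex. Uncharged tRNA activates the kinase GCN2, whose phosphorylation of eIF2 alpha favours translation of the transcription factor ATF4. Many cytosolic synthetase genes are known as ATF4 targets and carry a C/EBP-ATF response element near their start. In beta cells, where insulin synthesis loads the endoplasmic reticulum, the same factor is induced by stress in that compartment.

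Promoter sequences were examined because several of these genes moved together. RefSeq (GRCm38.p6) gave a window of 250 bases before to 50 after the start for 27 of the 36 genes, of which 13 are cytosolic. The core of the C/EBP-ATF element, TGATGNAA, was searched on both strands and lay in 5 of the 13 cytosolic promoters, in 0 of 15 promoters of the mitochondrial genes and in 3.97% of all 32851 promoter windows. The stretches that hold it are shown 5′ to 3′ along the gene, with the match in capitals. TTGCATCA and TTTCATCA are matches on the opposite strand.
Aars, upstream match, chr8:111033700-111033767, plus strand: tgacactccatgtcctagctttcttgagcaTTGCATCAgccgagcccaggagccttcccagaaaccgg
Aars, match after the start, chr8:111033821-111033858, plus strand: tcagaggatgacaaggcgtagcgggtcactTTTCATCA
Gars, chr6:55037941-55038000, plus strand: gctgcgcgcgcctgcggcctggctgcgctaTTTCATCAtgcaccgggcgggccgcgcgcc
Iars, chr13:49682107-49682144, plus strand: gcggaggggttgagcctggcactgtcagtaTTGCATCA
Tars, chr15:11399659-11399703, minus strand: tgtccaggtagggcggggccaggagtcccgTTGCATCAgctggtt
Yars, chr4:129189876-129189913, plus strand: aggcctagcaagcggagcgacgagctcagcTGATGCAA
The Aars promoter held the motif 112 bases before the start and again 9 bases after it. In Gars and Tars it lay 30 and 15 bases before the start, and in Iars and Yars 7 and 3 bases after it. A match describes the letters only and is not evidence of binding.

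The libraries held 8136185 to 9788646 counts in gene rows. Nr2e1 had 8 and 10 counts in control and 338 and 281 in TLX, the direction the labels give. Of 17 beta cell markers 13 were at 0 in every library, among them Neurod1, Slc2a2, Chga and Iapp. The summed beta cell markers were 18.3 to 20.6 CPM in control and 20.8 to 21.7 CPM in TLX. CPM are counts per 1e6 counts in the rows of the tested genes, with library sizes scaled as described below. Ins1 was at 8.66 to 11.3 CPM and Ins2 at 3.70 to 6.31 CPM. Of 13 mesenchymal markers 8 had enough counts to be tested and Lum was at 0. Acta2, Dcn, Thy1 and Col3a1 had at most 6 counts in any library. Col1a2, Vim, S100a4 and Fn1 were the highest, with control means of 3187, 1620.5, 1549 and 994 CPM. The summed mesenchymal level was 7584 to 7992 CPM in control and 8267 to 8604 CPM in TLX, but its members did not move together. Sparc (log2 fold change 0.87) and Col1a2 (0.28) rose, with adjusted p of 2.21e-08 and 0.0434, and Fn1 (-0.76) and Pdgfrb (-0.73) fell, with 4.34e-07 and 0.00647. The other 4 tested did not pass, and the part of these markers in the results was not tested. In bulk RNA, fewer cells of a type and less RNA per cell cannot be told apart. Among 11024 genes tested 16.8% were called at an adjusted p under 0.05 (edgeR quasi-likelihood test), 9.04% lower and 7.79% higher with TLX.

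Of the 20 cytosolic synthetase genes, 9 fell (Yars, Aars, Lars, Gars, Wars, Iars, Cars, Rars and Tars), 0 rose and 11 did not pass the test. Thus 45% were called lower and 0% higher, beside 9.04% and 7.79% of all genes tested. The falls were 1.18-fold to 1.42-fold. In 12 of the 20 genes both TLX libraries lay below both control libraries, a pattern found in 28.6% of all genes tested. In 5 of the 20 both lay above, a pattern found in 28.5% of all genes tested. The median log2 fold change was -0.22, beside 0.00057 over all genes tested. Summed over the 20 genes, the level was 6143 and 5905 CPM in control and 5193 and 5177 CPM in TLX, so the TLX mean was 86.1% of the control mean.

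The count of falls depended on the test and on single libraries. DESeq2 called 5 of the 9 (Aars, Gars, Iars, Lars and Yars). Without TLX replicate 1 only Aars and Yars passed (2 genes), and without TLX replicate 2 those and Lars (3 genes). Aars and Yars were called under all 12 alternatives run, and the sign of each of the 20 log2 fold changes was the same in all 12. The 0 genes called higher in edgeR compare with 1, Farsa, at an unadjusted p under 0.05, and with 0 in DESeq2 and in limma-voom.

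**Figure D1:**
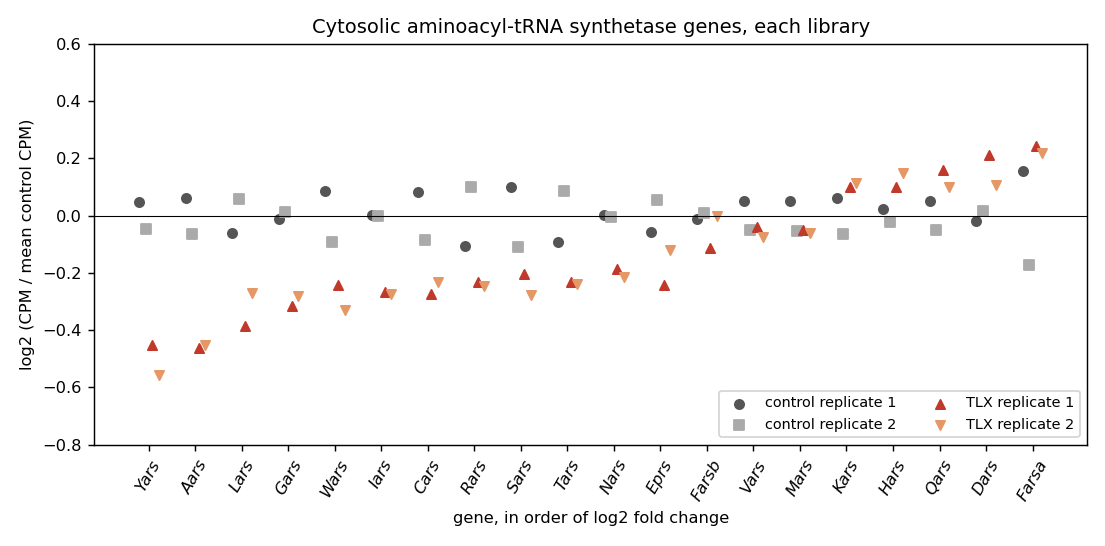
Level of each cytosolic synthetase gene in each of the 4 libraries, as log2 of its CPM over the mean control CPM (vertical axis), with genes in order of log2 fold change (horizontal axis). Points are single libraries. From Yars to Eprs both TLX libraries sit below both control libraries, in 12 genes, and for Kars, Hars, Qars, Dars and Farsa both sit above.

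Yars, the tyrosyl enzyme, showed the largest fall of the cytosolic set. It stood at 123 and 116 CPM in control and at 87.3 and 81.1 CPM in TLX. Both TLX libraries were well below both controls (log2 fold change -0.50, SE 0.08, adjusted p = 0.000147). Aars, the alanyl enzyme, is among the most abundant of the family, at 912 and 835 CPM in control. The TLX libraries gave 635 and 638 CPM, close to each other and below both controls (log2 fold change -0.46, SE 0.08, adjusted p = 0.000285). Both promoters hold the motif in the stretches shown above.

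Gars, the glycyl enzyme, serves both the cytosol and mitochondria from a single gene. Its level was 564 and 574 CPM in control and 457 and 469 CPM in TLX. The spread within each group was small beside the difference between them (log2 fold change -0.30, SE 0.08, adjusted p = 0.00803). Iars, the isoleucyl enzyme, had 238 and 237 CPM in control and 197 and 196 CPM in TLX. Replicates of Iars were nearly equal in both groups (log2 fold change -0.27, SE 0.07, adjusted p = 0.0135). Neither gene passed without TLX replicate 1 (adjusted p of 0.165 for Gars and 0.178 for Iars) or without TLX replicate 2 (0.111 and 0.197).

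Lars, the leucyl enzyme, which also acts as a leucine sensor for mTORC1, stood at 241 and 261 CPM in control and at 192 and 208 CPM in TLX. The groups did not overlap (log2 fold change -0.33, SE 0.08, adjusted p = 0.00501, and 0.182 without TLX replicate 1). Rars, the arginyl enzyme, varied more between controls, at 294 and 339 CPM, and had 269 and 267 CPM in TLX. The TLX libraries lay closer to control replicate 1 than the controls lay to each other (log2 fold change -0.24, SE 0.08, adjusted p = 0.0411). The call of Rars was lost in DESeq2 (0.111), with clone rows included (0.0675), without control replicate 2 (0.257) and without TLX replicate 1 or 2 (0.239 and 0.286). Lars, Rars and Iars are enzymes of the multisynthetase complex, of whose 8 enzymes 3 fell, 0 rose (0 also at an unadjusted p under 0.05) and 5 did not pass. The falls were 37.5% of these 8, beside 9.04% of all genes tested.

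Wars, the tryptophanyl enzyme, which interferon gamma also induces, had 246 and 218 CPM in control and 196 and 185 CPM in TLX (log2 fold change -0.28, SE 0.08, adjusted p = 0.0165). Cars, the cysteinyl enzyme, had 281 and 249.8 CPM in control and 219 and 226 CPM in TLX (-0.25, SE 0.08, adjusted p = 0.0282). Tars, the threonyl enzyme, had 265 and 299.7 CPM in control and 240.2 and 239 CPM in TLX (-0.24, SE 0.08, adjusted p = 0.0406). In all 3 the groups were separate, but the calls were less firm than that of Aars. In DESeq2 the adjusted p was 0.0515 for Wars, 0.079 for Cars and 0.113 for Tars. Without single libraries it reached 0.0735 to 0.27 for Wars (control replicate 1, TLX replicates 1 and 2), 0.128 to 0.285 for Cars (the same libraries) and 0.204 to 0.285 for Tars (control replicate 2, TLX replicates 1 and 2). Tars also missed the threshold with clone rows included (0.0676).

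A further 3 genes had both TLX libraries below both controls without passing. Sars, the seryl enzyme and the most abundant of the set per length, had 1025 and 886 CPM in control and 830 and 788 CPM in TLX (log2 fold change -0.24, adjusted p = 0.0577). It passed under 5 of the 12 alternatives, for example without control replicate 2 (0.00209). Nars, the asparaginyl enzyme, had 436 and 434 CPM in control and 382 and 375 CPM in TLX (log2 fold change -0.20, adjusted p = 0.0704). Eprs, which joins the glutamyl and prolyl enzymes in a single protein, had 287 and 311 CPM in control and 253 and 275 CPM in TLX (log2 fold change -0.18, adjusted p = 0.119, and 0.0224 without control replicate 1).

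The other 8 cytosolic genes showed smaller or opposite differences, and none passed. Farsa and Farsb encode the alpha and beta subunits of the phenylalanyl enzyme. Farsa had 114 and 91.1 CPM in control and 122 and 119 CPM in TLX (log2 fold change 0.24, SE 0.09, adjusted p = 0.0854). The positive value of Farsa depended on 1 control library, since it was 0.40 without control replicate 1 (adjusted p = 0.000137) and 0.08 without control replicate 2 (0.616). Farsb had 64.4 and 65.4 CPM in control and 60.02 and 64.9 CPM in TLX. Per length, the ratio of Farsa to Farsb was 2.46 and 1.94 in control and 2.82 and 2.56 in TLX, so the subunit transcripts were not at equal levels in any library.

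Dars (log2 fold change 0.16), Qars (0.13), Hars (0.13) and Kars (0.11), the aspartyl, glutaminyl, histidyl and lysyl enzymes, had both TLX libraries above both controls, with adjusted p of 0.273 to 0.374. Both TLX libraries lay above both controls in 28.5% of all genes tested. Dars, Qars and Kars belong to the multisynthetase complex, as do Lars, Iars and Rars. Values of the complex thus lay on both sides of 0, but none of the positive ones passed. Vars and Mars, the valyl and methionyl enzymes, overlapped between groups (log2 fold changes of -0.06 and -0.05, adjusted p of 0.667 and 0.686).

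**Figure D2:**
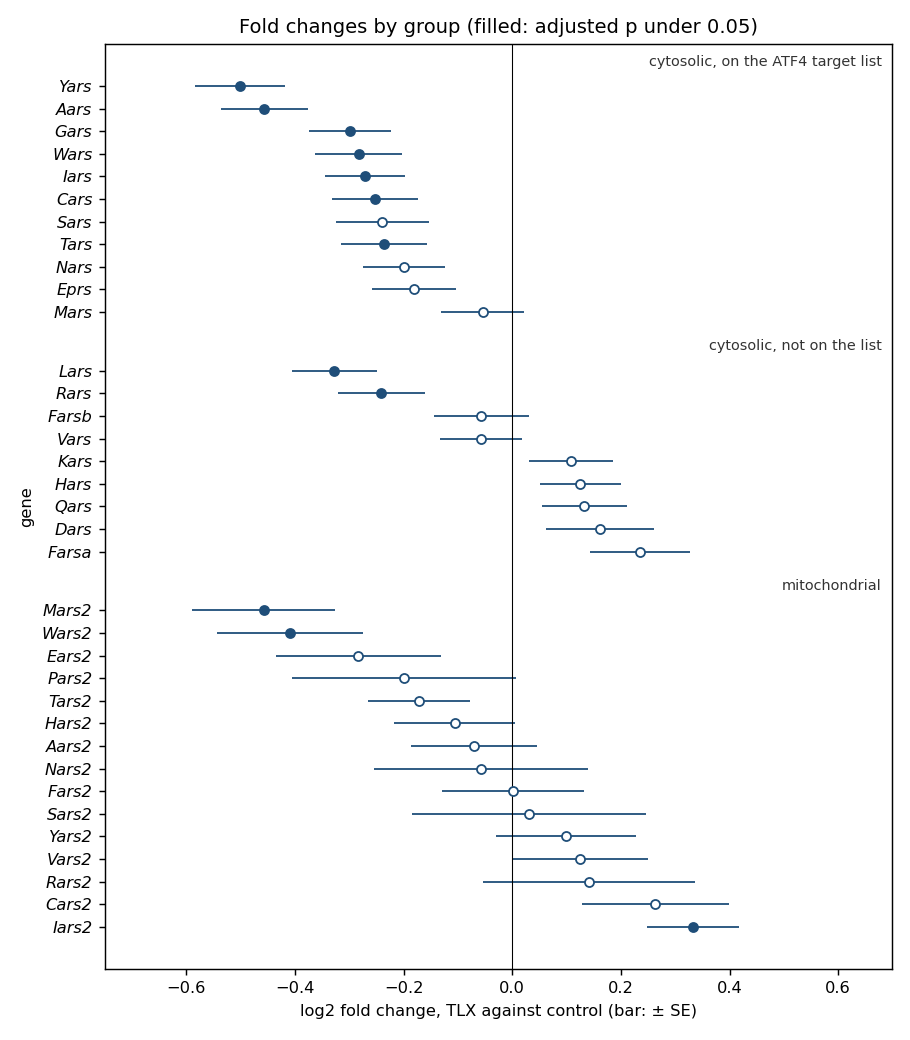
Log2 fold change of each synthetase gene, TLX against control (horizontal axis), with its SE as a bar; filled points passed at an adjusted p under 0.05. All 11 cytosolic genes on the ATF4 target list lie below 0, the 9 other cytosolic genes run from -0.33 to 0.24, and the 15 mitochondrial genes from -0.46 to 0.33.

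The cytosolic genes were then divided by whether they are widely listed as ATF4 targets, a division chosen with earlier results of these data known. Of 11 listed genes 7 fell (Yars, Aars, Gars, Wars, Iars, Cars and Tars), 0 rose and 4 did not pass, and all 11 log2 fold changes were negative (median -0.25). With no adjustment, 10 listed genes had lower and 0 higher values at p under 0.05 (edgeR), and DESeq2 called 4 falls and 0 rises. Of the 9 others 2 fell (Lars and Rars), 0 rose and 7 did not pass, with a median of 0.11. The falls were 63.6% of the listed genes and 22.2% of the others, beside 9.04% of all genes tested. The summed level of the listed genes was 4563 and 4331 CPM in control and 3669 and 3643 CPM in TLX, or 82.2% of control. The others summed to 1580 and 1574 CPM in control and 1524 and 1534 CPM in TLX, or 96.9% of control. In CPM most of the fall in the summed cytosolic level lay in the listed genes, which also held most of the control sum (mean 4447 of 6024 CPM). Among the others 5 values were positive and 4 negative, so their sum hides the falls of Lars and Rars. As the list was chosen with results known, this split is a description and was not tested.

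By catalytic class, 6 of 9 class I genes fell (Cars, Iars, Lars, Rars, Wars and Yars) and 3 of 10 class II genes (Aars, Gars and Tars), with 0 rises in either. Eprs, which spans both classes, was left out of this split. The falls were 66.7% of class I and 30% of class II, beside 9.04% of all genes tested. DESeq2 called fewer falls, Iars, Lars and Yars in class I and Aars and Gars in class II. At an unadjusted p under 0.05, 0 class I genes and 1 class II gene, Farsa, were higher. The medians were -0.25 for class I and -0.13 for class II. Class and the ATF4 list overlap, and their parts were not separated.

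All 5 cytosolic genes with TGATGNAA in the window (Aars, Gars, Iars, Tars and Yars) fell, with log2 fold changes of -0.50 to -0.24. The 8 cytosolic genes whose window does not hold these letters (Dars, Eprs, Farsa, Farsb, Kars, Mars, Qars and Sars) had values of -0.24 to 0.24, and none passed. Tars, at -0.2366, and Sars, at -0.2395, lay on either side of this division with nearly equal values, so part of the split is that of the call and not of the size. These calls are those of edgeR. Sars passed in limma-voom (adjusted p = 0.0422), and Tars did not pass in DESeq2 (0.113). Over all tested genes with a promoter window, 19.9% of the 216 that held the motif were called lower and 8.57% of the 8032 that did not, while 8.33% and 7.97% were called higher. No test was run on these shares. Cars, Hars, Lars, Nars, Rars, Vars, Wars, Hars2 and Pars2 were not examined for motifs, and among them Cars, Lars, Rars and Wars fell.

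Other motifs were counted in the same way. The E-box CACGTG, bound by Myc and related factors, lay in 4 of 13 (Aars, Farsb, Iars and Tars), beside 7.15% of all windows. Of these 4, 3 fell (Aars, Iars and Tars, which also hold TGATGNAA), as did 2 of the 9 without it. Over all tested genes with a window, 9.26% with the E-box and 8.81% without it were called lower. AAGTCA, the half-site that TLX binds, lay in 3 of 13 (Farsa, Iars and Sars), beside 15.1% of all windows. Of these 3, Iars fell and Farsa and Sars did not pass, while 4 of the 10 without it fell. Over all tested genes with a window the shares called lower were 10.8% with it and 8.57% without. The CCAAT box lay in 7 of 13, beside 37.4% of all windows. Of these 7, 4 fell (Aars, Iars, Tars and Yars, which also hold TGATGNAA), as did 1 of the 6 without it. Over all tested genes with a window, 8.93% with the CCAAT box and 8.81% without it were called lower. None of these shares was tested. Matches to different motifs did not overlap. The Farsa promoter held AAGTCA in both orientations, and the stretch is shown because Farsa had the highest log2 fold change of the cytosolic set, with the forward match in capitals.
Farsa, chr8:84856758-84856823, plus strand: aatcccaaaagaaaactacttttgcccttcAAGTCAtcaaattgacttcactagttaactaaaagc
The reverse match lies 186 bases before the start and the forward match 198 bases before it.

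Mitochondrial synthetase transcripts showed no common direction. Lars2 is described apart because its row took over 1% of gene row counts. Of the other 15 genes 1 rose (Iars2), 2 fell (Mars2 and Wars2) and 12 did not pass. Thus 6.67% were called higher and 13.3% lower, beside 7.79% and 9.04% of all genes tested. The median log2 fold change was -0.06, with 8 negative and 7 positive values. In 7 of the 15 genes both TLX libraries lay below both controls, a pattern found in 28.6% of all genes tested. In 2 both lay above, as in 28.5%, and in 6 the groups overlapped. The summed level of the 15 was 320 and 316.3 CPM in control and 318 and 317.9 CPM in TLX, and the groups overlapped. DESeq2 called 0 higher and 0 lower, and limma-voom called 1 and 2. Only the 3 called genes had an unadjusted p under 0.05 in the edgeR test.

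**Figure D3:**
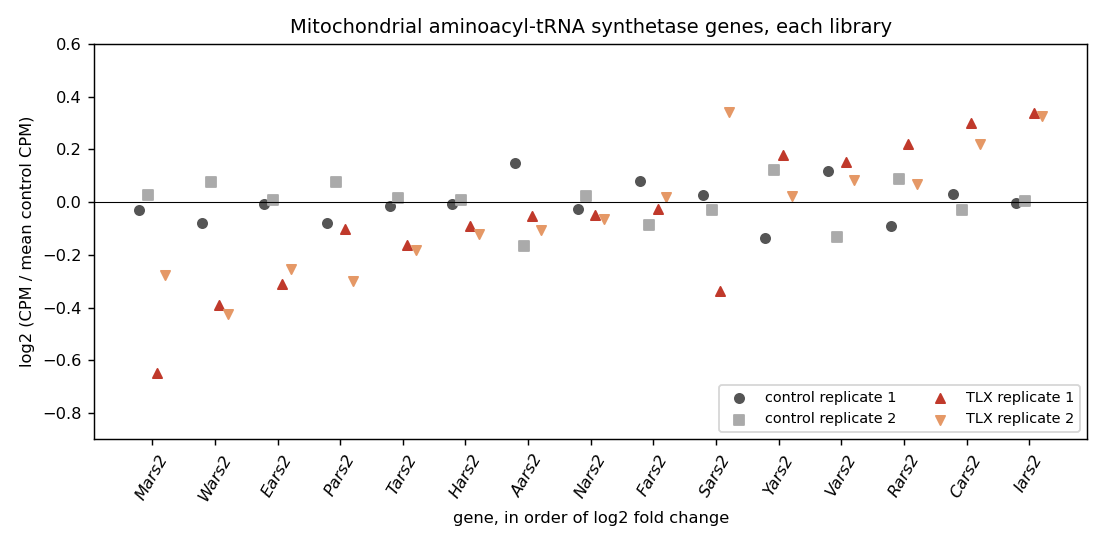
Level of each mitochondrial synthetase gene except Lars2 in each of the 4 libraries, as log2 of its CPM over the mean control CPM (vertical axis), in order of log2 fold change (horizontal axis). Points are single libraries. The TLX libraries lie together for Wars2 and Iars2 and far apart for Mars2 and Sars2.

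Iars2, the mitochondrial isoleucyl enzyme, was the most abundant of the 15 and had 61.7 and 61.9 CPM in control and 78.1 and 77.6 CPM in TLX. Its replicates were nearly equal, and it rose whereas its cytosolic counterpart Iars fell (log2 fold change 0.33, SE 0.08, adjusted p = 0.00817). The call was lost in DESeq2 (0.063) and without TLX replicate 1 (0.0938) or 2 (0.0765), at log2 fold changes of 0.33 to 0.34. Wars2, the tryptophanyl enzyme, fell as Wars did, from 17.6 and 19.6 CPM to 14.2 and 13.9 CPM (log2 fold change -0.41, SE 0.13, adjusted p = 0.038). Its counts were low, and it did not pass in DESeq2 (0.3) or without control replicate 2 (0.181), TLX replicate 1 (0.112) or TLX replicate 2 (0.147).

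Mars2, the mitochondrial methionyl enzyme, had 23.8 and 24.8 CPM in control and 15.5 and 20.1 CPM in TLX (log2 fold change -0.46, SE 0.13, adjusted p = 0.0178). TLX replicate 1 was the lower of the TLX libraries, and without it the value was -0.28 and did not pass (0.321); DESeq2 gave 0.173. Ears2, Pars2, Tars2, Hars2 and Nars2 also had both TLX libraries below both controls, with log2 fold changes of -0.28 to -0.06 and adjusted p of 0.217 to 0.884. Cars2 had both above (0.26, adjusted p = 0.195). For Aars2, Fars2, Rars2, Sars2, Vars2 and Yars2 the groups overlapped. Sars2 had 56 and 64 counts in control and 45 and 66 in TLX, with the TLX libraries on either side of both controls.

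The row Lars2, of the mitochondrial leucyl enzyme, held 1.25% to 1.73% of the gene row counts of each library, clone rows left out. Its level was 14674 and 16318 CPM in control and 12233 and 17732 CPM in TLX, far above that of any other synthetase. The TLX libraries lay on either side of both controls (log2 fold change -0.05, adjusted p = 0.863). Per length it stood at 3993 RPKM (CPM per kilobase of the listed length), beside 17.5 RPKM for Iars2. The ribosomal RNA row Rn45s had 143120 and 140692 CPM in control and 120192 and 171485 CPM in TLX. Both rows were lowest in TLX replicate 1 and highest in TLX replicate 2, but their order in the controls was opposite. The ratio of Lars2 to Rn45s counts was 0.103 and 0.116 in control and 0.102 and 0.103 in TLX, so 3 of the 4 libraries had nearly the same ratio. Whether the row counts reads of ribosomal RNA was not tested, and its value is not read here as the level of the Lars2 transcript.

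Levels per length separated the 2 sets. In control the cytosolic genes ran from 13.5 RPKM (Dars) to 258 RPKM (Sars), with a median of 72.1, and the 15 mitochondrial genes from 1.69 RPKM (Nars2) to 17.5 RPKM (Iars2), with a median of 7.61. Only Iars2 stood above a cytosolic gene, Dars. The cytosolic order began with Sars (258 ± 26.7 RPKM), Gars (238 ± 3.05 RPKM) and Aars (235 ± 14.8 RPKM; SD, n = 2), which overlapped in control, and went on with Nars (164 ± 0.493 RPKM) and Rars (149 ± 15.1 RPKM). These first 3 genes made up 37.4% and 35.9% of the summed cytosolic RPKM in control and 33.6% and 33.4% in TLX. Of 19 neighbours in the cytosolic order 10 overlapped in control, as did 6 of 14 in the mitochondrial order, so the order is firm only in part. Across the 20 cytosolic genes Spearman's rho of control RPKM and log2 fold change was -0.36, and across the 15 mitochondrial genes 0.13, given as descriptions of genes that share the same libraries.

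**Figure D4:**
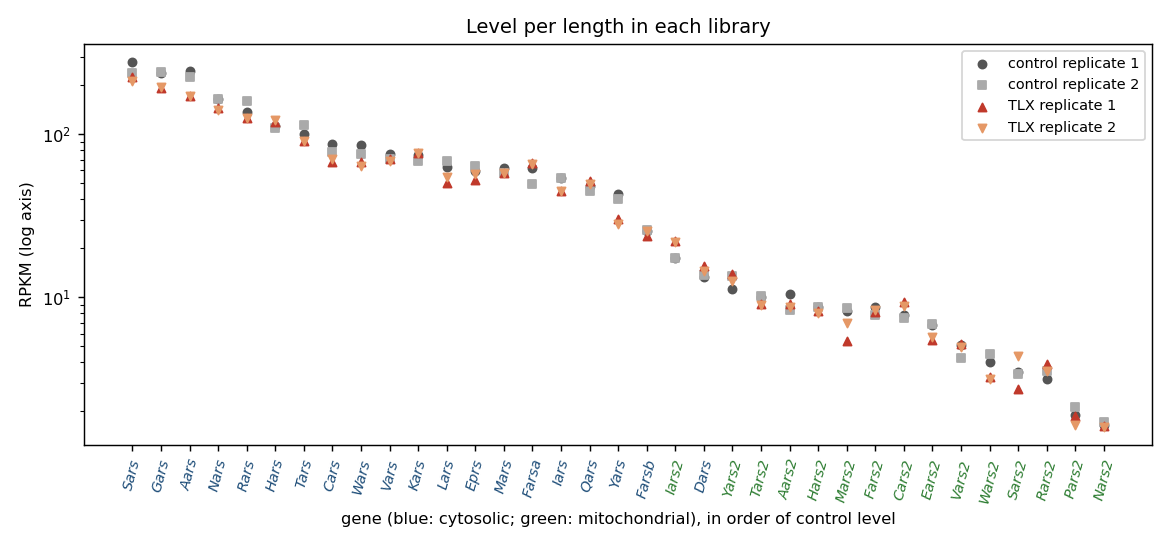
Level per length (RPKM, log axis) of each synthetase gene except Lars2 in each of the 4 libraries, in order of control level. Cytosolic genes (blue names) fill the upper range from 258 to 13.5 RPKM, and mitochondrial genes (green names) the lower from 17.5 to 1.69 RPKM.

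Cytosolic and mitochondrial enzymes for the same amino acid were set side by side as the ratio of their RPKM in each library. There were 14 such pairs, with Eprs paired with both Ears2 and Pars2. The ratio in control ran from 3.09 for Iars to Iars2 to 97.2 for Nars to Nars2. In 7 pairs both TLX ratios lay below both control ratios, in 3 above, and in 4 the groups overlapped. Among all single genes tested 28.6% lay below in this way and 28.5% above, and no such share was computed for ratios. With 2 libraries a group no exact permutation test can pass, so these are descriptions.

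The largest shifts were in Yars to Yars2, from a ratio of 3.38 to 2.21, and in Iars to Iars2, from 3.09 to 2.03. In Cars to Cars2 the ratio went from 10.8 to 7.57, and in these 3 pairs the cytosolic gene fell while the mitochondrial gene had a positive log2 fold change (for Yars2 0.10, and -0.02 without control replicate 1). Aars to Aars2 and Rars to Rars2 also had lower ratios in both TLX libraries. Mars to Mars2 shifted the other way, from 7.13 to 9.45, with Mars2 lower and Mars nearly level.

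**Figure D5:**
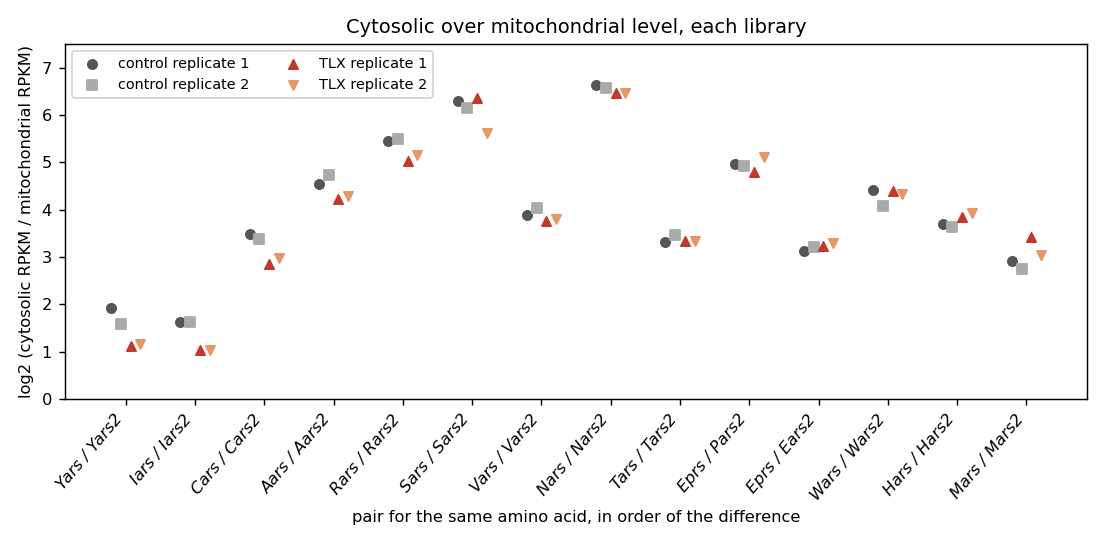
Log2 ratio of cytosolic to mitochondrial RPKM for 14 pairs of synthetase genes (vertical axis), in order of the difference between groups (horizontal axis). Points are single libraries. Yars to Yars2, Iars to Iars2 and Cars to Cars2, at the left, have both TLX libraries clearly below both controls.

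Partners of the synthetases were examined next, in lists chosen with earlier results known. Over all genes tested 9.04% were called lower and 7.79% higher, and the counts below stand beside these shares. Of the 3 scaffold proteins of the multisynthetase complex, Eef1e1 (AIMP3) fell, with 51.99 and 43.0 CPM in control and 37.8 and 36.8 CPM in TLX (log2 fold change -0.34, adjusted p = 0.0247), and Aimp1 (-0.19) and Aimp2 (-0.10) did not pass (0.0986 and 0.458). The call of Eef1e1 was lost in DESeq2 (0.176) and without control replicate 1 (0.183), TLX replicate 1 (0.0885) or TLX replicate 2 (0.135). Of 4 genes that amidate or formylate charged mitochondrial tRNA, Gatc, a subunit of the amidotransferase that makes glutaminyl-tRNA, fell (-0.45, adjusted p = 0.00817). Qrsl1, another subunit, did not pass (0.31, adjusted p = 0.201, and 0.0348 without control replicate 1). Gatc did not pass in DESeq2 (0.101) or without control replicate 2 (0.052) or TLX replicate 1 (0.0907).

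Elongation factors, which bring charged tRNA to the ribosome, did not pass in either compartment. Of 6 cytosolic and 5 mitochondrial factors tested, 0 rose and 0 fell in edgeR, in DESeq2 and in limma-voom, and 0 had an unadjusted p under 0.05. Eef1a1, which delivers aminoacyl-tRNA in the cytosol, had a log2 fold change of -0.02, and its mitochondrial counterpart Tufm of 0.13 (adjusted p of 0.923 and 0.35). Among 5 tested genes of deacylation and peptidyl-tRNA release, Ptrh2, a peptidyl-tRNA hydrolase, fell (-0.39, adjusted p = 0.00741, but 0.0866 in DESeq2 and 0.104 without TLX replicate 2).

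Of 7 genes of selenocysteine synthesis, which starts from seryl-tRNA, 2 rose and 1 fell. These were 28.6% and 14.3% of this short list, beside 7.79% and 9.04% of all genes tested. The selenophosphate synthetase genes Sephs1 (0.32) and Sephs2 (0.28) rose (adjusted p of 0.0257 and 0.017), and Sepsecs, which converts the tRNA-bound residue, fell (-0.49, 0.0435). In DESeq2 none of the 3 passed, and each lost its call without TLX replicate 1 or 2 (0.075 to 0.288 over the 3 genes). Sephs1 and Sepsecs also lost it without control replicate 2 (0.283 and 0.25), and Sepsecs with clone rows included (0.0518).

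Of 22 tested genes of tRNA processing, splicing and export 1 rose and 4 fell, and 1 of these falls, Rpp38, passed in DESeq2. The list was thus 4.55% higher and 18.2% lower, beside 7.79% and 9.04% of all genes tested. Rpp38, a protein of RNase P, fell from a mean of 7.05 to 3.02 CPM (log2 fold change -1.22, adjusted p = 0.000501) and was called under all 12 alternatives, although its counts were only 58 and 71 in control and 26 and 24 in TLX. Xpot, which exports tRNA from the nucleus and is itself known as an ATF4 target, fell (-0.26, adjusted p = 0.0263, and 0.0821 to 0.301 in DESeq2 or without control replicate 2, TLX replicate 1 or TLX replicate 2). Tsen15 (-0.41) and Pop7 (-0.31) fell and Tsen34 (0.26), like Tsen15 a subunit of the splicing endonuclease, rose, with adjusted p of 0.0199, 0.0321 and 0.0451. Each of these calls was lost in DESeq2 (0.196 to 0.234) and without TLX replicate 2 (0.0802 to 0.18). Pop7 also lost it without control replicate 1 (0.0759) or TLX replicate 1 (0.299), and Tsen34 without control replicate 2 (0.1) or TLX replicate 1 (0.482), with total counts (0.06) and with clone rows (0.0661).

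Genes of tRNA modification, the largest of the lists, held the most falls of the processing lists. Of 43 tested, 14 fell, 0 rose (also 0 at an unadjusted p under 0.05) and 29 did not pass, and the median was -0.22. The falls were 32.6% of the list, beside 9.04% of all genes tested. DESeq2 called 2 falls and 0 rises, and limma-voom 14 and 0. Trmt61a, which methylates adenosine in tRNA, fell from 45.2 and 40.5 CPM in control to 30.8 and 27.3 CPM in TLX (log2 fold change -0.56, adjusted p = 0.000661), and Dus2l, a dihydrouridine synthase, from 13.4 and 11.0 CPM to 7.40 and 5.43 CPM (-0.91, adjusted p = 0.00138). Both were called under all 12 alternatives. The tRNA adenosine deaminase genes Adat1 (-0.70) and Adat2 (-0.58), the thiolation gene Ctu1 (-0.43) and the pseudouridine synthase gene Pus1 (-0.35) also fell, with adjusted p of 0.00992 to 0.0162. None of these 4 passed in DESeq2 (0.0799 to 0.187). Each also lost its call without 1 or more single libraries, at 0.0653 (TLX replicate 2) and 0.0879 (control replicate 2) for Adat1, 0.0817 (TLX replicate 1) for Adat2, 0.0575 (control replicate 1) and 0.123 (TLX replicate 1) for Ctu1, and 0.22 (control replicate 1), 0.0863 and 0.0532 (TLX replicates 1 and 2) for Pus1.

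RNA polymerase III, which transcribes the tRNA genes themselves, differed little. Of 24 genes of the polymerase and its factors 0 rose (1 at an unadjusted p under 0.05; 0 in DESeq2), 1 fell and 23 did not pass, with a median of 0.00097. The share called lower was 4.17%, beside 9.04% of all genes tested. The gene that fell, Brf2, encodes a subunit of a form of the initiation factor TFIIIB (log2 fold change -0.39, adjusted p = 0.0434). It did not pass in DESeq2 (0.286), limma-voom (0.0502), with clone rows (0.0504), or without control replicate 1 (0.236), TLX replicate 1 (0.182) or TLX replicate 2 (0.0952).

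Among genes of the amino acid stress response around ATF4, of 25 tested 14 fell, 0 rose (also 0 at an unadjusted p under 0.05 and in DESeq2) and 11 did not pass. The falls were 56% of the list, beside 9.04% of all genes tested. The median log2 fold change was -0.36, beside -0.25 for the listed synthetases. Ddit3 (-1.59), the pseudokinase gene Trib3 (-1.02), Nupr1 (-0.96), the arginine transporter gene Slc7a1 (-0.64), the glutathione-degrading enzyme gene Chac1 (-0.63) and Aldh18a1 (-0.49), of proline synthesis, all fell more than the median synthetase, and these 6 were called under all 12 alternatives. These 6 were named as the members of smallest p in the list, so large falls and firm calls follow in part from that choice. Atf4 itself, chosen after its values were seen, had 813 and 837 CPM in control and 737 and 731 CPM in TLX. Both TLX libraries were lower, and the difference did not pass (log2 fold change -0.17, adjusted p = 0.147; 0.0177 with the replicate block).

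Among the kinases of eIF2 alpha and the regulators of its phosphatase, 1 of 9 genes rose and 1 fell. Each was 11.1% of the list, near the 7.79% higher and 9.04% lower of all genes tested. Ppp1r15a (GADD34), which directs the phosphatase to eIF2 alpha, fell from 506 and 473 CPM in control to 224 and 243 CPM in TLX (log2 fold change -1.07, adjusted p = 1.65e-09). Eif2ak3, which encodes the endoplasmic reticulum kinase PERK, rose from 26.4 and 23.4 CPM to 33.0 and 33.8 CPM (log2 fold change 0.43, adjusted p = 0.00873, but 0.106 in DESeq2 and 0.0538 without TLX replicate 2). Eif2ak4, which encodes the uncharged tRNA sensor GCN2, did not pass (0.20, adjusted p = 0.4).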

How the data were processed

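RNA-seq of 2 control and 2 TLX libraries was analysed. The authors deposited raw read counts as whole numbers, each row with its length in bases (column names per the file headers). TopHat2 2.0.13 and the build mm9 were used, per the submitters' processing notes. The counting program, annotation, strand and treatment of reads with several matches are not stated in the labels, so related genes may share reads.

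The 33353 rows named for FANTOM3 cDNA clones (23.3% to 25.1% of counts) name no gene and entered neither library sizes nor tests, and 0 synthetase rows had the same 4 counts as a clone row. Rows were kept by filterByExpr with a minimum count of 10. After TMM scaling, the quasi-likelihood test of edgeR 4.0.16 (in R 4.3.3) was run on the 11024 genes left, with Benjamini-Hochberg adjustment over all of them. Alternatives also used DESeq2 1.42.0 and limma 3.58.1. CPM use TMM-scaled library sizes, summed over the genes tested, and RPKM the deposited length. The SE is the log2 fold change over the square root of F. For a row at 0, 3 counts set the upper limit, which was 0.302 to 0.379 CPM and covers counting error alone. Between the libraries of a group the median chi-square per gene was 1.21 and 0.955, above the 0.455 of sampling noise, so none was taken as deposited again.

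The members, lists and motifs were chosen with earlier results of these data known. The text names every synthetase. Genes it names from a related list are among the 6 tested members of smallest p or belong to a list of at most 5, except Atf4, and not all such genes are named.

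The 12 alternatives were DESeq2's size factors, total counts, no filter, DESeq2's Wald test, limma-voom, a replicate block, fits without the rows Rn45s and Lars2 or with clone rows, and leaving out each library.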

Additional observations from a re-analysis of the deposited data

How the results depend on the processing

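With 2 libraries a group, most synthetase differences were near the size that these counts can resolve, and the calls moved with the tool and with single TLX libraries. Over the 70 named genes, 720 of 839 alternative values kept their direction and their side of the threshold, 89 no longer passed, 13 newly passed and 17 changed sign. DESeq2's Wald test called 5 cytosolic synthetases lower, 0 mitochondrial ones higher and 0 lower, 0 related genes higher and 17 lower, and 345 of all genes higher and 480 lower (main test 859 and 997). It gave no adjusted p for 428 genes, none of them a synthetase or a related gene. Scaling alternatives moved the median of all genes by less than 0.1.

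Leaving out each library in turn gave 0 to 1 cytosolic synthetases higher and 2 to 8 lower, with a median log2 fold change of -0.22 to -0.14 (lowest -0.2235, highest -0.1396). It gave 0 to 1 mitochondrial ones higher and 0 to 2 lower, 0 to 5 related genes higher and 18 to 38 lower, and 388 to 993 of all genes higher and 585 to 1060 lower. The lowest counts of all genes came without a TLX library. Where a library is left out, the lone sample is assumed to vary like the other group.

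Genes near 0 changed sign. Fars2 gave -0.006807 with total counts, -0.002633 with no filter, -2.43e-05 in DESeq2, -0.002448 without the rows Rn45s and Lars2, -0.00113 with clone rows, and -0.0863 to 0.08142 without single libraries. Sars2 gave -0.008321 in limma-voom and -0.3344 to 0.341 without single libraries. The range without single libraries was -0.2283 to 0.08632 for Aars2, -0.3407 to 0.1935 for Lars2, -0.002381 to 0.2468 for Vars2, -0.01868 to 0.2405 for Yars2 and -0.01396 to 0.3942 for Eif2ak4. The causes were not tested, and Lars2 has no value in the fit without its own row.

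Control and TLX libraries share replicate numbers, but the labels do not say what a number shares, and there are only 2 pairs. Deviations of same-numbered libraries from their group means correlated at 0.108 over 11024 genes. With the replicate block 1 cytosolic synthetase was higher (Farsa) and 12 lower, with Sars, Nars and Eprs newly passing. Of the named related genes, Aimp1 (adjusted p = 0.0185) and Atf4 (0.0177) newly passed as lower. In that fit 7 related genes were higher and 48 lower (main test 4 and 38). Of all genes, 1495 were higher and 1487 lower (main test 859 and 997), so calls grew in both directions. Fars2 was at -0.0004595 with the block.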
